A study of Mus musculus with 2 samples.

Results

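Conventional dendritic cells of mouse alveolar bone, the jaw bone around the roots of the teeth, were chosen by their genes from single-cell counts of 2 libraries. A barcode was a member if it had at least 1000 unique molecular identifiers (UMIs, each standing for 1 captured RNA molecule) over named genes and at most 20% of them mitochondrial. It also needed at least 3 UMIs of the MHC class II genes H2-Aa, H2-Ab1 and H2-Eb1 together and at least 2 UMIs over Cd209a, Flt3, Xcr1, Clec9a, Ccr7 and Fscn1. It could hold no UMI of the B-cell genes Cd79a, Cd79b and Ms4a1, of Siglech or of Cd3e, and at most 1 UMI of C1qa, C1qb and C1qc. The rule found 243 members among 21809 barcodes that met the UMI and mitochondrial limits, 100 of 9365 in library 1 and 143 of 12444 in library 2. In shares, these were 1.07% (exact Clopper-Pearson 95% interval 0.870 to 1.30) of library 1 and 1.15% (0.969 to 1.35) of library 2. These genes chose the members, so their levels describe the choice.

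The mice were healthy C57BL/6J animals of 6 to 8 weeks. The study set a group whose upper right first molar was pulled forward by a nickel-titanium coil spring at a constant 25 g against a control group that wore the spring without force. On day 7 the molar was removed, bone within 1 mm of the socket was digested for 60 minutes and freed of red cells by lysis, and each group gave 1 pool from 6 of the 12 mice. The labels tie neither library to force or control, so no comparison of force with control was made, and each library is a single pool. No test was possible, and every interval below is a 95% limit for counting error only. Below, 2 values joined by "and" are those of library 1 and then library 2. Of the barcode sequences that passed the limits, 75 occurred in both libraries, no member was a member in both, and 1 member's sequence also passed in the other library. A level is in CPM, the summed UMIs of a group of barcodes scaled to a total of 1000000, and where a group had no UMI the limit in brackets is the CPM that 3 UMIs would give.

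Conventional dendritic cells take up antigen, cut it into peptides and show these to T cells on MHC class II molecules. The cDC1 kind, marked by Xcr1 and Clec9a, is known for showing peptides of engulfed cells to CD8 T cells, and the cDC2 kind, marked in mouse by genes such as Cd209a, Clec10a and Mgl2, for activating CD4 T cells. On maturation both kinds raise CCR7, the receptor that guides them to lymph nodes, along with co-stimulatory molecules and a set of cytokine and chemokine genes. In bone, dendritic cells share precursors and growth factor receptors with monocytes and osteoclasts.

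The members fell into barcodes rich in MHC class II RNA and barcodes with little of it, and the genes that mark dendritic cells lay mainly in the rich ones. The sum of the 3 MHC class II genes ranged from 0.307 to 727 per 10000 UMIs in library 1, with a median of 105, and from 0.365 to 879 in library 2, with a median of 13.9. A limit of 20 per 10000, chosen after the values were seen, left 67 MHC-high members in library 1 and 69 in library 2, which were 67% (56.9 to 76.1) and 48.3% (39.8 to 56.8) of all members. Few members lay near the limit, 3 and 12 between 10 and 30 per 10000. The MHC-high members had a median of 5575 and 5683 UMIs, and the 33 and 74 MHC-low members had 14637 and 12783. Median mitochondrial shares were 1.02% and 1.36% in MHC-high members and 1.74% and 2.24% in MHC-low members. At the edge of the rule itself, 16 and 24 members had exactly 3 MHC class II UMIs while 42 and 34 barcodes were left out with 2. Another 19 and 39 members had exactly 2 UMIs of the dendritic genes while 27 and 70 barcodes were left out with 1.

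**Figure D1:**
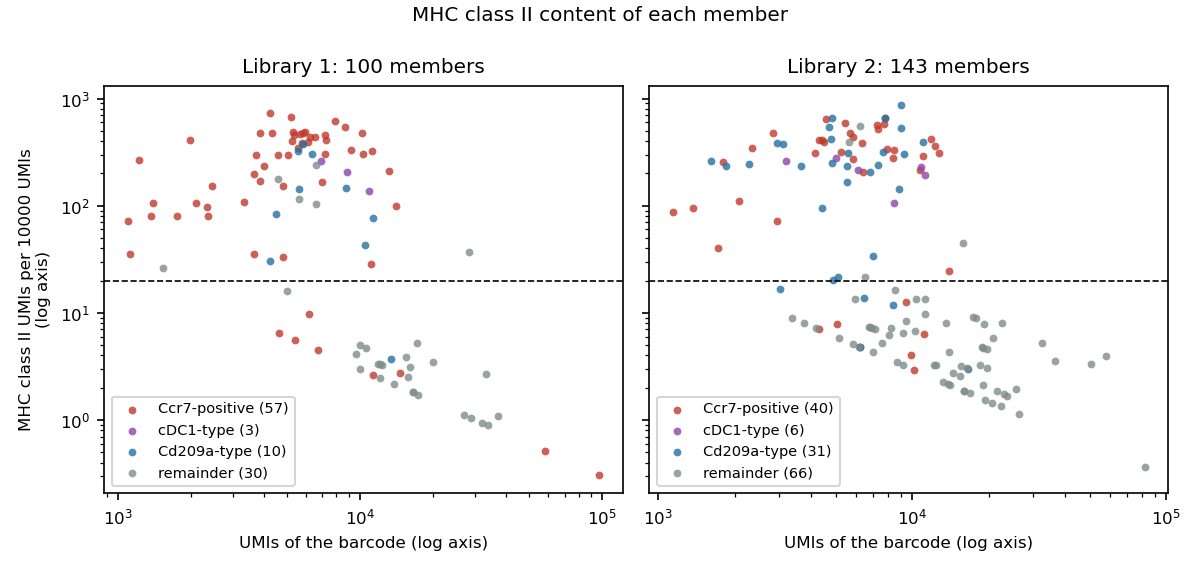
Each point is a member, by its UMIs (x, log axis) and its MHC class II UMIs per 10000 (y, log axis), coloured by the dendritic genes it carried, for library 1 (left) and library 2 (right). The dashed line at 20 per 10000 separates the MHC-high members, with medians of 242 and 302, from the MHC-low members, with medians of 2.99 and 4.80.

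Most MHC-low members met the rule through Fscn1 or Flt3 and carried the genes of other cells. Fscn1, which encodes the actin-bundling protein fascin, was the only dendritic gene of the rule in 18 of 33 and 48 of 74 MHC-low members, against 2 of 67 and 1 of 69 MHC-high members. Each barcode was marked once, by the first limit it met, with order and limits chosen after the values were seen. The limits were 100 UMIs of Acp5 and Ctsk, 5 endothelial and 200 stromal UMIs per 10000, 3 progenitor UMIs and 3 T and NK UMIs. So marked, 11 and 36 MHC-low members were endothelial, 10 and 13 stromal and bone, 5 and 14 early progenitor and 6 and 4 T and NK. Of MHC-high members, 8 and 1 were endothelial, 1 and 3 stromal and bone, 11 and 9 early progenitor and 18 and 26 T and NK. Endothelial and stromal genes thus marked a larger share of MHC-low than of MHC-high members in both libraries. The T and NK step came last, when most MHC-low members were already marked, so its shares in MHC-low and MHC-high members cannot be compared. In the endothelial group, which included 10 and 35 barcodes with Fscn1, the vessel junction gene Cdh5 stood at 469 and 869.9 CPM and the vessel sialomucin gene Emcn at 642 and 1507. The stromal group held 9 and 12 barcodes with Fscn1, and its collagen gene Col1a1 stood at 50642 and 48877 CPM.

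The MHC-low progenitor group had Flt3, the receptor of a growth factor for early blood cells, in 4 of 5 and 14 of 14 barcodes. Its level of Cd34, a marker of stem and progenitor cells, was 352 and 229 CPM. The group was unlike between the libraries in other genes. Mpo, of the neutrophil list, stood at 4896 and 529, Ly6c2, of the monocyte list, at 2844 and 37.5, and the haemoglobin gene Hbb-bs at 79.2 and 7605. In the T and NK group, 4 of 6 and 4 of 4 barcodes had Ccr7, and the granzyme gene Gzma stood at 1053 and 1344 CPM. Nkg7, of the same list, stood at 161 and 952 in this group, and Cd3d and Cd3g had no UMI in either library. Cd14, of the monocyte list, stood at 3333 and 84.0 and the cytokine gene Il1b at 4473 and 56.0, so the group of library 1 also held much myeloid RNA. One further barcode, of library 2, held 57715 UMIs, of which 4304 came from the osteoclast genes Acp5 and Ctsk, and it gave most of the Acp5 and Ctsk UMIs of the MHC-low members of that library. A megakaryocyte signal came from the endothelial group of library 1, where the platelet factor gene Pf4 stood at 10116 CPM, against 62.4 in library 2. That group of library 1 had a median of 16525 UMIs but included 1 barcode of 97565. Its levels, with those of Cdh5 and Emcn, can rest on that barcode, and this was not tested.

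The marker lists separated the MHC-high from the MHC-low members in both libraries. The conventional dendritic cell list of 10 genes summed to 5393 and 7343 CPM in MHC-high members, against 1044 and 1394 in MHC-low members. The stromal and bone list summed to 4085 and 3967 in MHC-high members and to 57305 and 44103 in MHC-low members. Among the other barcodes of the libraries, neither members nor in a comparison class, the stromal list summed to 57989 and 47916. Of 5268 genes with enough UMIs, 478 (9.07%) were at least 2-fold higher in MHC-high than in MHC-low members in both libraries, and 739 (14%) were at least 2-fold lower. In the first set were 5 of 7 tested genes of the dendritic list, 6 of 10 of the mature dendritic list and 7 of 7 of the co-stimulation list. In the second were 10 of 10 stromal, 6 of 8 endothelial and 4 of 5 progenitor genes. The split rests on MHC class II content, so these counts describe it.

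**Figure D2:**
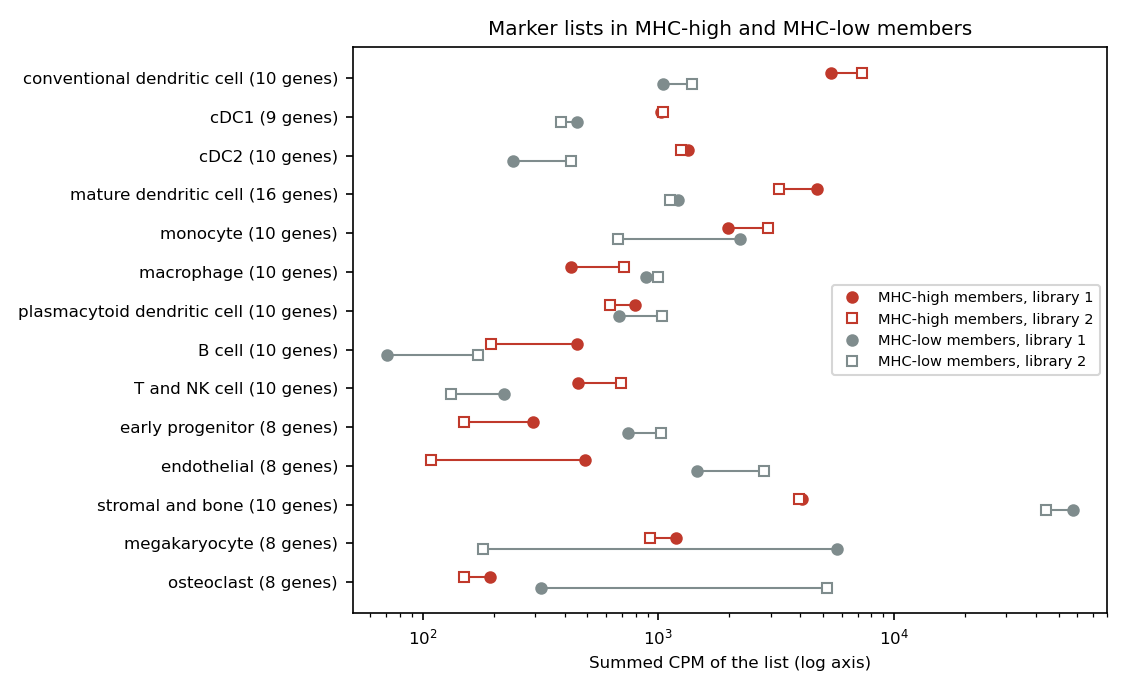
Summed CPM (x, log axis) of 14 marker lists in MHC-high members (red) and MHC-low members (grey), with filled circles for library 1, open squares for library 2 and a line joining both. The 4 dendritic lists lay higher in MHC-high members, and the progenitor, endothelial, stromal and osteoclast lists lay higher in MHC-low members, in both libraries.

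Taking all 243 members as they were, genes of blood vessels were among those that stood out. Each level was set against the highest of 4 comparison classes gated by their own markers, each with at least 1000 UMIs and none of them members. They were a monocyte gate (Ly6c2, Ccr2, F13a1 and Csf1r) of 192 and 239 barcodes, a macrophage gate (C1q genes with Csf1r, Adgre1 or Mrc1) of 102 and 149, a plasmacytoid gate (Siglech and Bst2) of 85 and 255 and a B-cell gate of 171 and 259. A gene was tested if it had at least 20 UMIs, and called if it was at least 2-fold higher in both libraries. Of 8313 genes tested, 291 (3.5%) were called in the members. They included 7 of 8 tested endothelial genes and 6 of 10 stromal genes, but 1 of 9 genes of the dendritic list, Zbtb46. The leading genes included Sox18 and Sox7, transcription factors of vessel development, and Emcn. For the MHC-high members, 43 of 7850 genes (0.548%) met the same limit, and the rest of the account is about these 136 barcodes.

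MHC class II genes chose the MHC-high members, so the levels of H2-Aa, H2-Ab1 and H2-Eb1 describe that choice. H2-Aa, the alpha chain of I-A, stood at 10299.9 (9991 to 10616) and 12497 (12167 to 12834) CPM in MHC-high members, against 3305 and 3107 in the macrophage gate and 2455 and 2156 in the B-cell gate. H2-Ab1, its beta chain, stood at 8642 and 11080.1, and H2-Eb1, the beta chain of I-E, at 7088 and 8356. The pathway list held 13 tested genes that the rule did not use, and 3 of them were at least 2-fold above every class in both libraries. Of all genes tested, 0.548% were. The MHC-high members were split off by class II RNA and the classes were not, and how far these levels follow from that split was not tested. Cd74, the invariant chain that escorts class II molecules to the endosome, stood at 20358 (19923 to 20799.8) and 28346 (27848 to 28850.3) in MHC-high members. Its level was 8361 and 8010.3 in the macrophage gate, 7794 and 8788 in the B-cell gate and 943 and 1990.0 in the monocyte gate, so the groups lay well apart in both libraries.

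The other called pathway genes were H2-DMa and H2-DMb1, the subunits of the molecule that loads peptides onto class II. H2-DMa stood at 386 and 539.8 CPM in MHC-high members, 2.17 and 2.24 times the highest class, and H2-DMb1 at 225 and 533, 2.03 and 3.82 times, although its reads could be shared with the neighbouring copy H2-DMb2. H2-Ob, a subunit of the inhibitor of that loading step, was lower in MHC-high members than in the B-cell gate, at 105 and 73.5 against 271 and 227. Ciita, the transactivator of class II genes, stood at 44.0 (26.1 to 69.6) and 57.4 (37.2 to 84.8) in MHC-high members, against 49.9 and 39.5 in the B-cell gate and 1.95 and 4.64 in the monocyte gate. In the median, the 13 pathway genes lay at -0.38 and -0.17 log2 relative to the highest class, against -0.90 and -0.81 for all genes tested.

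Promoters of class II genes are known to hold a conserved Y box, bound by the factor NF-Y, within a shared module. The RefSeq promoter windows (GRCm38.p6, from 250 bases before to 50 after the gene start) matched 13 of the 18 class II and pathway genes, and 4 of them, H2-Aa, H2-Eb1, H2-Eb2 and H2-Oa, held CTGATTGG on either strand. Of all 32851 windows, 4.10% held it. The windows of the alpha chain of I-A and the beta chain of I-E are shown because both genes belong to the rule, with the Y box in capitals. It begins 51 bases before the start of H2-Aa (chr17:34287774-34288073, minus strand) and 62 bases before that of H2-Eb1 (chr17:34305617-34305916, plus strand).
H2-Aa: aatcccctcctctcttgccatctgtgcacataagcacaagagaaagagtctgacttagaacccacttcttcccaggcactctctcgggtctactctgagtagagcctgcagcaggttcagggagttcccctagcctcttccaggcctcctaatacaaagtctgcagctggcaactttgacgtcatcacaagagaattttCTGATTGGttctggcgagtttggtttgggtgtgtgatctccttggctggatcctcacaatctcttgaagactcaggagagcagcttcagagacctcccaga
H2-Eb1: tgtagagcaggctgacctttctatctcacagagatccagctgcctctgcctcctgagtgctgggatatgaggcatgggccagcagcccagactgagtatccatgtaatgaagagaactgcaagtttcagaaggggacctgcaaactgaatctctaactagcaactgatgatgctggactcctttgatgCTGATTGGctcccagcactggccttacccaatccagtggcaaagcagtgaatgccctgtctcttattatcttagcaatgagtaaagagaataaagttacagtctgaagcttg

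Of the 9 tested genes of the conventional dendritic cell list, 4 were called in the MHC-high members, namely Zbtb46, Cst3, Plbd1 and Traf1. Zbtb46, a transcription factor largely restricted to conventional dendritic cells within the immune system, stood at 70.9 (47.5 to 102) and 64.3 (42.7 to 92.9) CPM in MHC-high members. Its level was 3.26 and 4.64 in the monocyte gate, 5.97 and 4.88 in the macrophage gate, 9.07 and 3.78 in the plasmacytoid gate and 16.6 and 4.71 in the B-cell gate. The counting interval of either MHC-high value lay above every one of these. The MHC-low members held 16.9 and 22.9, and endothelial cells are also known to express Zbtb46. Zfp366, which encodes the dendritic factor DC-SCRIPT, stood at 125 (92.9 to 164) and 48.2 (29.9 to 73.7) in MHC-high members, 8.04 and 12.36 times the highest class.

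Cst3, the protease inhibitor cystatin C, is abundant in dendritic cells. It was detected in 88.1% and 98.6% of MHC-high members at median depths of 5575 and 5683 UMIs, and in 35.1% and 35.5% of the B-cell gate at 2358 and 2547. With each barcode thinned to 1000 UMIs the shares were 70.1% and 94.2% in MHC-high members and 15.2% and 18.5% in the B-cell gate. Its level was 3816 and 5228 CPM in MHC-high members, against 1123 and 1831 in the monocyte gate and 1660.0 and 1733 in the macrophage gate. Plbd1, a phospholipase-like gene of myeloid cells, stood at 560.1 and 999, 2.93 and 2.82 times the highest class, and Traf1, an adaptor of TNF receptors, at 643 and 448, 2.40 and 2.91 times.

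Itgax, which encodes CD11c, was not called, with 34.2 and 115 CPM in MHC-high members and 74.4 and 101 in the plasmacytoid gate. Batf3, a factor required by cDC1, rested on 12 and 9 UMIs, at 29.4 (15.2 to 51.3) and 20.7 (9.45 to 39.2). The marker lists of the other classes summed to less in MHC-high members than in the class they mark. The monocyte, macrophage and plasmacytoid lists hold genes that also chose their gates, so these sums partly describe that choice. The monocyte list summed to 1967 and 2919 in MHC-high members, against 10313 and 9465 in the monocyte gate, and the macrophage list to 426 and 712, against 16464 and 11505 in the macrophage gate. The plasmacytoid list summed to 795 and 622, against 7116 and 9886 in the plasmacytoid gate. Among single genes, Ly6c2, a monocyte gene, stood at 298 and 611 in MHC-high members, against 2931 and 3937 in the monocyte gate, which used it. Apoe, a lipid carrier abundant in macrophages, stood at 132 and 289 in MHC-high members, against 13896 and 8486 in the macrophage gate, and the plasmacytoid receptor gene Ccr9 at 4.89 and 2.30, against 688 and 1058 in the plasmacytoid gate.

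Against the monocyte gate alone, 179 of 7107 genes (2.52%) were at least 2-fold higher in MHC-high members in both libraries and 589 (8.29%) were at least 2-fold lower. The higher set took in 7 of 9 tested co-stimulation genes, 4 of 7 dendritic genes, 5 of 9 mature dendritic genes and 4 of 8 class II pathway genes. The lower set took in 6 of 10 monocyte genes, among them Ly6c2, F13a1, Csf1r, Chil3 and Fn1. Ly6c2, F13a1 and Csf1r chose the monocyte gate, so their place in this set describes that choice. Csf1r, the receptor of the monocyte growth factor CSF1, stood at 66.0 and 124 CPM in MHC-high members and at 333 and 427 in the monocyte gate, which required a UMI of it. Ccr2, which guides monocytes out of the marrow, was lower in MHC-high members by less than 2-fold, at 220.1 (177 to 271) and 310.1 (260.0 to 367). The monocyte gate, which counted Ccr2 towards its choice, held 296 and 483.

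**Figure D3:**
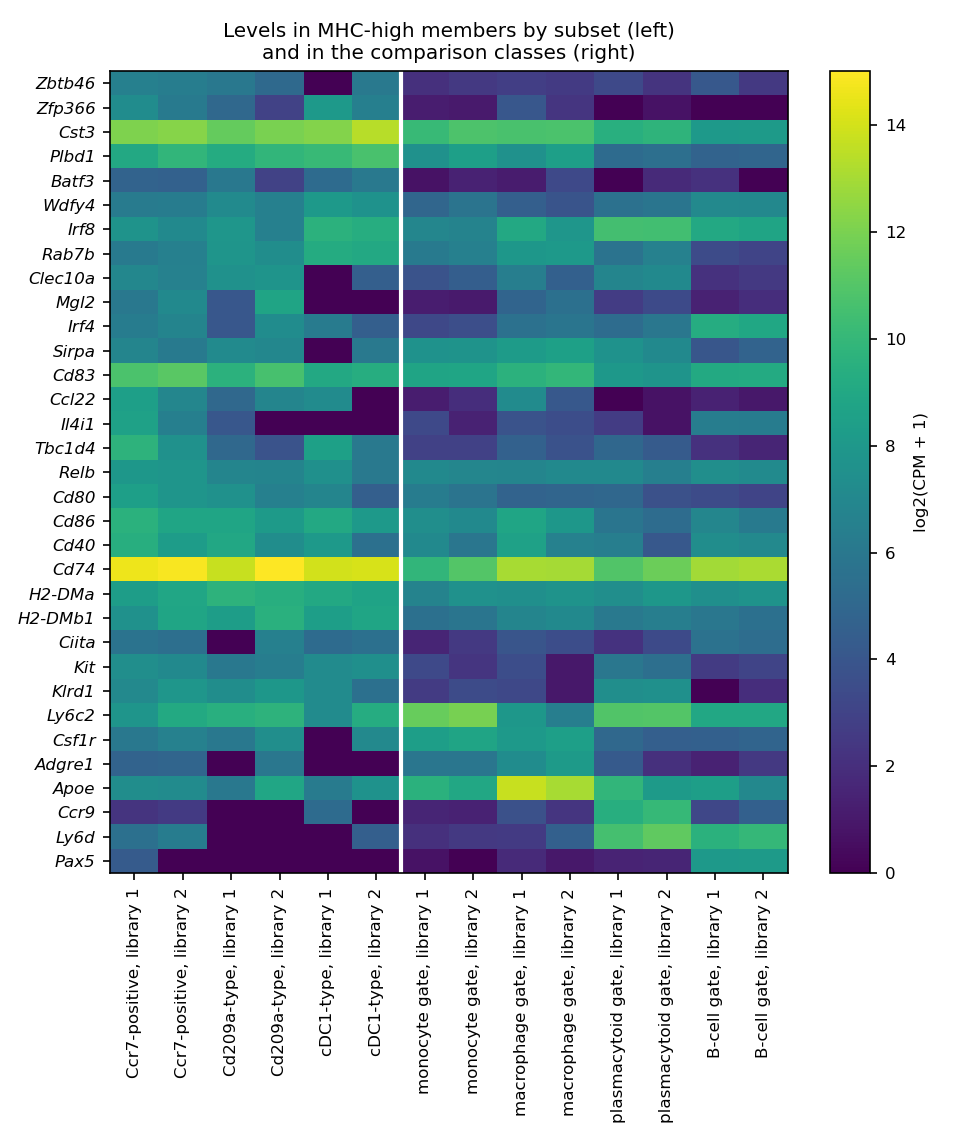
Colour gives log2(CPM + 1) of the named genes (rows) in the Ccr7-positive, Cd209a-type and cDC1-type MHC-high members (left of the white line) and in the 4 comparison classes (right), with both libraries in adjacent columns. Cd74, Cst3 and Plbd1 are brighter in every column on the left than on the right, while Ly6c2 is brightest in the monocyte gate, Apoe in the macrophage gate, Ccr9 in the plasmacytoid gate, and Pax5 in the B-cell gate.

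Co-stimulation genes, whose products give T cells their second signal, included Cd80 and Havcr2 among the called genes of MHC-high members. The median ratio of the 9 tested genes was 0.60 and 0.70 log2 above the highest class, against -0.90 and -0.81 for all genes tested, and these 2 of the 9 were called. Cd80, a ligand of CD28, stood at 276 (228 to 332) and 142 (109 to 183) CPM in MHC-high members, 3.54 and 2.61 times the highest class. Havcr2, which encodes the checkpoint receptor TIM-3, stood at 90.5 and 163, 2.11 and 2.14 times. The other CD28 ligand, Cd86, missed the limit, at 619 (545 to 700.0) and 351 (298 to 412) in MHC-high members and 459 and 248 in the macrophage gate. Cd40, the receptor of T-cell help, also missed it, at 579.7 and 223 in MHC-high members and 382 and 94.6 in the macrophage gate. Cd86 and Cd40 were thus higher in MHC-high members than in the macrophage gate in either library, though not by 2-fold in both.

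Several genes outside the fixed lists led the MHC-high members. Klrb1b, an inhibitory lectin-like receptor known from NK cells, stood at 119.9 (88.7 to 158) and 82.7 (57.9 to 114) CPM in MHC-high members, in 18 and 14 barcodes, 26.28 and 28.51 times the highest class. Klrk1, the activating receptor NKG2D, stood at 342 and 149, and Klrd1, the partner chain CD94, at 135 and 207, against 167 and 187 in the plasmacytoid gate. The T-cell receptor and NK genes Cd3d, Trac, Ncr1 and Nkg7 held 0 to 2 UMIs each in the MHC-high members of either library. These genes of T and NK cells were thus at or near 0. At least 3 UMIs of the T and NK list were still found in 18 and 26 MHC-high members that no earlier list had marked. Most of these UMIs came from Klrd1 and Il7r, the receptor chain of IL-7, at 291 and 482.

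Wnt11, a secreted Wnt ligand, stood at 78.3 and 119 CPM in MHC-high members, 10.93 and 10.84 times the highest class. Mmp25, a membrane-bound metalloprotease, stood at 352 and 108, 14.23 and 6.65 times, and Ramp3, a subunit of adrenomedullin and calcitonin-family receptors, at 372 and 257, 6.03 and 9.24 times. Nr4a3, an orphan nuclear receptor known to act in dendritic cell migration, stood at 1169 and 620.2, 5.05 and 2.91 times. Stat5a, a signal carrier of GM-CSF and related cytokines, stood at 220.1 (177 to 271) and 131 (99.2 to 169.6), 3.42 and 4.24 times. Kit, the receptor of stem cell factor, was found in 22 and 18 barcodes at 135 and 117, against 61.7 and 44.1 in the plasmacytoid gate. Csf2rb, the shared receptor chain of GM-CSF, IL-3 and IL-5, stood at 1132 and 1153 in MHC-high members and 760.4 and 678 in the monocyte gate, under the 2-fold limit, and mouse has a near-identical copy, Csf2rb2, with which reads could be shared.

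Most other function lists held no called gene or a single one. None was called among 11 tested genes of MHC class I and cross-presentation, 11 of C-type lectins and Fc receptors, 16 of pattern recognition, 12 of chemokine receptors, 12 of cytokines, 11 of actin and migration and 15 of the cell cycle. Over all genes tested the share called was 0.548%, so a count of 0 in lists of this size is near that share. Tlr2, a receptor for bacterial lipoproteins, stood at 105 and 211 CPM in MHC-high members, against 606 and 532 in the monocyte gate. Tlr4, the endotoxin receptor, stood at 12.2 and 6.89 in MHC-high members, against 65.2 and 47.0 in the monocyte gate. The chemokine Cxcl16, which acts on CXCR6 of T cells, stood at 726 and 739.6 in MHC-high members and at 921 and 759 in the macrophage gate, while Ccl3, a chemokine of inflammation, was lower in MHC-high members, at 164 and 32.2 against 3731 and 1439 in the macrophage gate. Il23a, a subunit of IL-23, had no UMI in MHC-high members, at 0 (limit 7.34) and 0 (limit 6.89).

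The MHC-high members were sorted by the rule's own genes, in a fixed order, into Ccr7-positive, cDC1-type, Cd209a-type and a remainder. Ccr7-positive barcodes made up 49 of 67 in library 1, or 73.1% (60.9 to 83.2), and 33 of 69 in library 2, or 47.8% (35.6 to 60.2). The Cd209a-type made up 9, or 13.4% (6.33 to 24.0), and 26, or 37.7% (26.3 to 50.2). The cDC1-type was rare, with 3 barcodes (4.48%) and 6 (8.70%), and 6 and 4 barcodes remained. The kinds were not exclusive, since 17 and 19 MHC-high members had UMIs of both Ccr7 and Cd209a, and 22 and 43 had Cd209a in all.

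Ccr7 is also a B-cell gene, and it was detected in 82.1% and 50.7% of MHC-high members and in 67.3% and 73.7% of the B-cell gate. Thinned to 1000 UMIs the shares were 67.2% and 37.7% in MHC-high members and 49.1% and 44.8% in the B-cell gate. In the monocyte gate, which should lack Ccr7, the unthinned share was 4.17% and 2.93% at median depths of 7222.5 and 6117 UMIs. Pax5, the factor that commits cells to the B lineage and that the rule did not use, stood at 18.8 and 0 (limit 14.5) CPM in Ccr7-positive MHC-high members, against 271 and 291 in the B-cell gate. The B-cell list as a whole summed to 567 and 203 in Ccr7-positive members, against 7964 and 9728 in the B-cell gate, and all 10 of its genes had a UMI in library 1. The rule left out barcodes with Cd79a, Cd79b or Ms4a1, and the B-cell gate required UMIs of these genes. How far the lower levels of Pax5 and of the list follow from that choice was not tested.

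Ccr7-positive members carried genes of mature dendritic cells. Against the Cd209a-type MHC-high members, 58 of 1635 tested genes (3.55%) were at least 2-fold higher in both libraries, and 15 (0.917%) were at least 2-fold lower. The higher genes included 5 of 7 tested genes of the mature list, which were Relb, Samsn1, Tmem123, Tbc1d4 and Cd274. Tbc1d4, a regulator of vesicle traffic, stood at 833 (727 to 951) and 189 (134 to 258) CPM in Ccr7-positive members and at 31.9 and 13.4 in the Cd209a-type, on 2 UMIs in each library. Cd274, the checkpoint ligand PD-L1, stood at 571 and 218 in Ccr7-positive members and at 207 and 80.2 in the Cd209a-type. Relb, an NF-kB subunit needed for dendritic cell maturation, stood at 244 and 228 in Ccr7-positive members and at 112 and 107 in the Cd209a-type.

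Other maturation genes met the limit in 1 library only or had too few UMIs to be tested. Il4i1, an amino acid oxidase that restrains T cells, stood at 390.5 (319 to 473) and 87.1 (51.6 to 138) CPM in Ccr7-positive members and at 16.0 and 0 (limit 20.0) in the Cd209a-type. Ccl22, a chemokine that draws regulatory T cells, stood at 353 (285 to 432) and 116 (74.4 to 173) in Ccr7-positive members and at 31.9 (3.86 to 115) and 114 (66.2 to 182) in the Cd209a-type, so the groups lay apart in library 1 and overlapped in library 2. Fscn1, which mature dendritic cells are known to express, stood at 225 in the Ccr7-positive members of library 1, while the 33 of library 2 held no UMI of it, at 0 (limit 14.5). Cd83, a surface protein of mature dendritic cells, stood at 1735 and 2275 in Ccr7-positive members and at 798 and 1564 in the Cd209a-type. Il12b rested on 5 UMIs of library 1, and Ccl17 on 6 and 10 UMIs of the MHC-high members.

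Of other lists, 2 of 7 tested chemokine genes (Ccl5 and Cxcl9), 1 of 5 C-type lectin and Fc receptor genes (Clec7a) and none of 4 pattern recognition genes were higher in Ccr7-positive members than in the Cd209a-type. Marcks and Marcksl1, regulators of the actin cortex, were 2 of 9 tested actin genes above the limit. Marcks stood at 1374 (1237 to 1522) and 1438 (1279 to 1611) CPM in Ccr7-positive members and at 670.2 and 501 in the Cd209a-type. Clec7a, the beta-glucan receptor Dectin-1, stood at 477 and 518 in Ccr7-positive members and at 63.8 and 207 in the Cd209a-type. Il7r stood at 379 and 775 in Ccr7-positive members and at 95.7 and 247 in the Cd209a-type. Cxcl9, a chemokine for activated T cells, stood at 931 (819 to 1054) and 237 (175 to 314) in Ccr7-positive members, but in library 2 it came from 3 barcodes. Tnip3, an inhibitor of NF-kB signalling, was the called gene of the cDC2 list, at 734 and 287 in MHC-high members, and it stood at 894 and 494 in Ccr7-positive members and at 303 and 120.3 in the Cd209a-type.

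**Figure D4:**
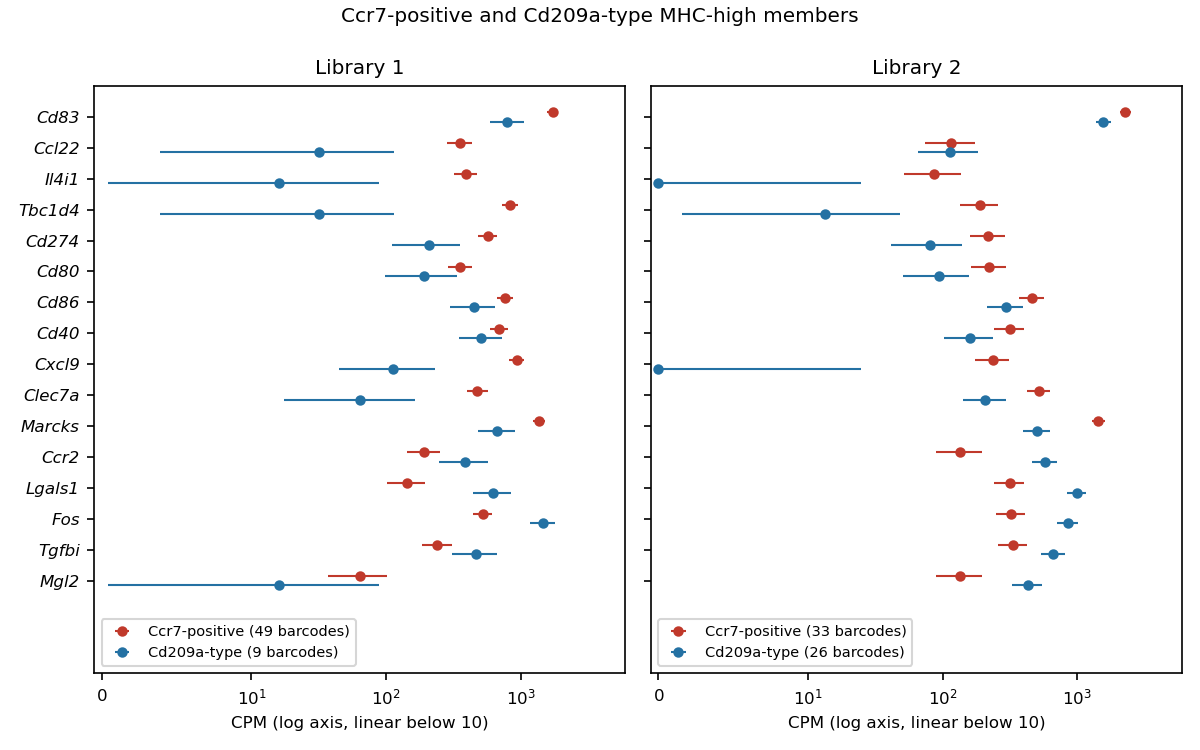
CPM (x, log axis, linear below 10) of 16 genes in Ccr7-positive MHC-high members (red) and Cd209a-type MHC-high members (blue), with 95% Poisson intervals for counting error, for library 1 (left) and library 2 (right). Tbc1d4, Cd274, Clec7a and Marcks lay higher in Ccr7-positive members in both libraries, and Ccr2, Lgals1, Fos and Tgfbi lay higher in the Cd209a-type.

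Among the 15 genes higher in the Cd209a-type was 1 of 5 tested monocyte genes, Ccr2, and none of 5 cDC2 genes. Over all 1635 genes tested the share was 0.917%, so finding none in a list of 5 is near that share. Ccr2 stood at 383 (245 to 569.8) and 575 (459.7 to 709.7) CPM in the Cd209a-type and at 191 (143 to 252) and 136 (90.1 to 196) in Ccr7-positive members. Lgals1, the lectin galectin-1, stood at 622 and 989 in the Cd209a-type and at 143 and 315 in Ccr7-positive members. Tgfbi, a matrix protein made by myeloid cells, stood at 463 and 662 in the Cd209a-type and at 240.3 and 334 in Ccr7-positive members, just under the limit. The stress and immediate early genes Fos, Dnajb1 and Hspa1a were also among the 15. The Cd209a-type of library 1 had 9 barcodes, so these ratios rest on few cells.

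The lectin genes of cDC2 did not follow Cd209a in both libraries alike. Clec10a stood at 191 and 214 CPM in the Cd209a-type and at 124 and 96.8 in Ccr7-positive members, and at 0 (limit 112) and 22.3 in the cDC1-type. Mgl2, its close relative, stood at 16.0 and 428 in the Cd209a-type and at 63.8 and 136 in Ccr7-positive members, in opposite order in library 1 and library 2, with 1 UMI in the Cd209a-type of library 1. Reads of these neighbouring paralogs may be shared, and their counts are uncertain to that extent. Cd209a itself, a gene of the rule, encodes a lectin of monocyte-derived and cDC2 cells in mouse. It stood at 203 (162 to 252) and 595 (525 to 672) in MHC-high members, while the monocyte gate held 3.91 and 5.80 and the plasmacytoid gate 30.9 and 43.4. Irf4, a factor of cDC2, stood at 63.6 and 106 in MHC-high members, against 615 and 493 in the B-cell gate.

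The 9 cDC1-type barcodes carried Irf8, Rab7b, Ppt1 and Wdfy4 of the cDC1 list, and the other genes of that list are not all given here. Irf8, the lineage factor of cDC1, stood at 787 (487 to 1203) and 647 (433 to 929) CPM in the cDC1-type, against 210.2 and 140.4 in Ccr7-positive members and 1443 and 1419 in the plasmacytoid gate. Rab7b, an endosomal GTPase, stood at 599.5 (343 to 974) and 535 (343 to 797) in the cDC1-type and at 223 and 160.4 in the Cd209a-type. Ppt1, a lysosomal enzyme, stood at 449.6 and 268 in the cDC1-type and at 79.8 and 53.5 in the Cd209a-type, and Wdfy4, needed for cross-presentation, at 262 and 201 in the cDC1-type and 144 and 93.6 in the Cd209a-type. In both libraries the cDC1-type, of 3 and 6 barcodes, was the higher for Rab7b, Ppt1 and Wdfy4. For Wdfy4 the counting intervals of the cDC1-type and the Cd209a-type overlapped. Havcr2 stood at 637 and 178 in the cDC1-type and at 16.0 and 140.3 in the Cd209a-type. Sirpa and Clec10a, genes of cDC2, had no UMI in the cDC1-type of library 1 and 3 and 1 in that of library 2. Xcr1 and Clec9a were found together in 1 and 4 MHC-high members, and Clec9a was also found in the plasmacytoid gate, at 76.2 and 47.8.

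RNA of other cells was present in the MHC-high members too, and its part in these levels was not tested. S100a8, a gene of neutrophils, stood at 1479.8 and 4936 CPM in MHC-high members, against 26751 and 31514 in the other barcodes. In Ccr7-positive members of library 2 the level was 8244, against 1483 in those of library 1. Most of that came from few barcodes, since the whole neutrophil list had a median of 24.0 per 10000 UMIs and a highest value of 2519 in these 33 members. The list summed to 3718 and 11565 in MHC-high members, with all 10 genes above 0 in both libraries. Haemoglobin Hbb-bs, whose reads could be shared with its copy Hbb-bt, stood at 119.9 and 788 in MHC-high members, against 2532 and 19331 in the other barcodes. Kdr, an endothelial growth factor receptor, stood at 131 in Ccr7-positive members of library 1, while the endothelial genes Cdh5 and Emcn stood at 7.51 and 0 (limit 11.3).

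The receptor and ligand that drive osteoclast formation were scarce in MHC-high members. Tnfrsf11a, the receptor RANK, rested on 6 and 5 UMIs in MHC-high members, at 14.7 (5.39 to 31.9) and 11.5 (3.73 to 26.8) CPM, against 51.3 and 44.9 in the macrophage gate. Tnfsf11, its ligand, had 1 UMI in the MHC-high members of each library. Of the 12 tested genes of the osteoclast lineage list, 0 were called above the 4 classes, where the background was 0.548% of all genes. Ocstamp, a gene of osteoclast fusion, stood at 29.4 (15.2 to 51.3) and 34.5 (19.3 to 56.8) in MHC-high members, and at 15.6 and 26.1 in the monocyte gate, within those intervals. Il1b, a cytokine that promotes resorption, stood at 2277 (2133 to 2428) and 2281 (2141 to 2427) in MHC-high members and at 1936 and 944 in the monocyte gate. Tnf stood at 132 and 117 in MHC-high members, against a higher 1561 and 702 in the macrophage gate.

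MHC-high members of library 1 held more RNA of interferon response genes than those of library 2. The 13-gene interferon list summed to 13362 CPM in MHC-high members of library 1 and to 3337 in those of library 2. Rsad2, an antiviral enzyme known as viperin, stood at 2742 (2584 to 2907) in library 1 and at 136 (103 to 175) in library 2. Isg15, a ubiquitin-like modifier, stood at 1539 (1421 to 1664) and 98.8 (71.5 to 133). Ifit1, a sensor of foreign RNA ends, stood at 1289 (1181 to 1404) and 48.2 (29.9 to 73.7), so none of these intervals overlapped between the libraries. In all, 9 of 13 list genes were at least 2-fold higher in library 1 with separate counting intervals, and 0 were lower. Among all 5387 genes tested in MHC-high members, 377 (7%) met this limit in that direction and 181 (3.36%) in the other.

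Sums of the list were also higher in library 1 in the comparison classes, though barcodes differed widely. In library 1, 32 of 67 MHC-high members held at least 100 interferon UMIs per 10000, against 5 of 69 in library 2. Isg15 was detected in 77.6% and 27.5% of MHC-high members and in 32.7% and 8.88% of the B-cell gate, and thinned to 1000 UMIs in 59.7% and 10.1% of MHC-high members. Ccr7-positive members summed to 16118 and 3582 CPM and the Cd209a-type to 13244 and 3582. In each of these kinds 9 of 13 list genes were higher in library 1, where 8.53% of all tested genes were in Ccr7-positive members and 7.27% in the Cd209a-type. In the Cd209a-type of library 1 the sum rested on 4 of 9 barcodes with at least 100 per 10000, and the medians were 33.2 and 22.0. The cDC1-type held 2660 and 2744, on 3 and 6 barcodes, with little difference between the libraries.

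In the macrophage gate the same list summed to 17952 and 2937 CPM, in the plasmacytoid gate to 7707 and 3735, in the monocyte gate to 7645 and 4612 and in the B-cell gate to 2548 and 936. The medians of the monocyte gate, 46.7 and 41.8 per 10000, differed less than its sums, with 39 of 192 and 14 of 239 barcodes at 100 or more. Counted as for the MHC-high members, 9 of 13 list genes were higher in library 1 in the macrophage gate, where 4.9% of all tested genes were, and 11 of 13 in the plasmacytoid gate, where 4.47% were. In the monocyte gate 8 of 13 were, where 4.55% of genes were, and in the B-cell gate 9 of 13, where 3.67% were. Among the other barcodes 6 of 13 were, where 4.88% of genes were. The libraries also differ in depth, with 77572847 and 116775367 UMIs, and library, pool and any treatment cannot be told apart.

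**Figure D5:**
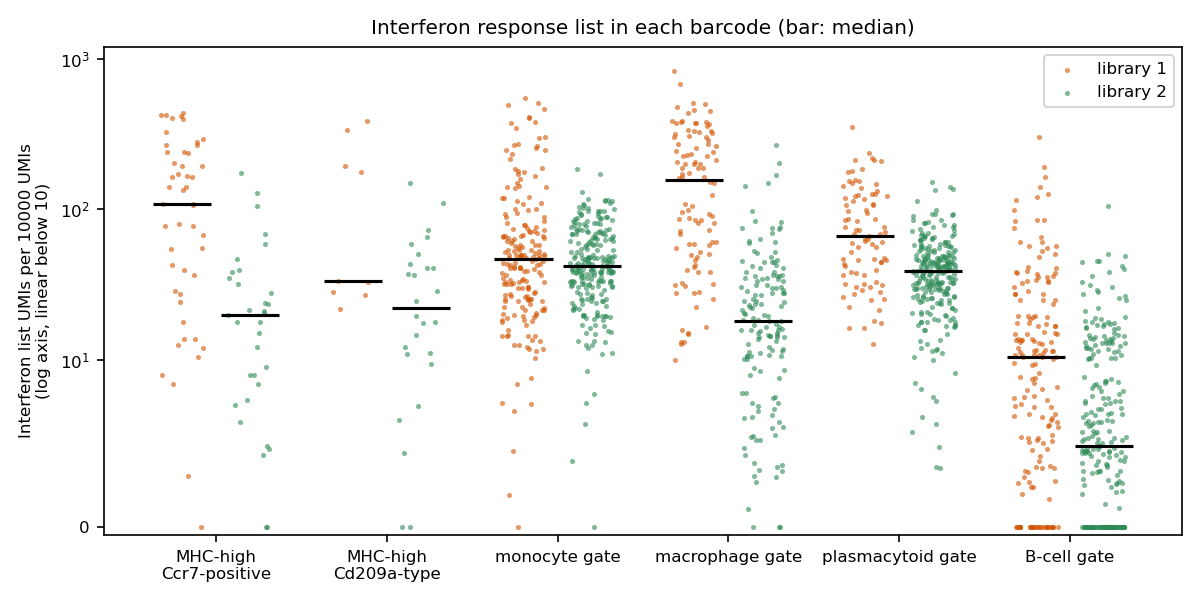
Each point is a barcode, by its UMIs of the 13 interferon genes per 10000 UMIs (y, log axis, linear below 10), for Ccr7-positive and Cd209a-type MHC-high members and the 4 comparison classes, with library 1 in orange and library 2 in green. Black bars are medians, which were 109 and 19.7 in Ccr7-positive members, 33.2 and 22.0 in the Cd209a-type and 156 and 18.1 in the macrophage gate.

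Interferon-induced genes are known to hold an interferon-stimulated response element (ISRE), bound by STAT and IRF factors. Its core, GAAA followed after 2 bases of any kind by GAAA, was searched on both strands of the same promoter windows, and 7 of the 11 interferon list genes with a window held it, against 3.44% of all windows. Matches that overlap were counted separately. The windows of 3 genes that carried the library difference are shown with the core in capitals, on the strand of the gene. The first match begins 104 bases before the start of Ifit1 (chr19:34640639-34640938, plus strand), which holds 2, and 78 bases before that of Isg15 (chr4:156200769-156201068, minus strand), which holds 3 that overlap. It begins 120 bases before the start of Rsad2 (chr12:26456403-26456702, minus strand). A match describes the letters and shows no binding.
Ifit1: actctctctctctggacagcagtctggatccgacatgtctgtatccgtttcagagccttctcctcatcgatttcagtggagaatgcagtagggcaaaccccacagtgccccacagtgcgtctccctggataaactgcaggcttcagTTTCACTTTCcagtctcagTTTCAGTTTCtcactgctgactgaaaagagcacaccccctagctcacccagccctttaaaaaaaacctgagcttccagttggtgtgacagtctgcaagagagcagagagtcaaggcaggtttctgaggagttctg
Isg15: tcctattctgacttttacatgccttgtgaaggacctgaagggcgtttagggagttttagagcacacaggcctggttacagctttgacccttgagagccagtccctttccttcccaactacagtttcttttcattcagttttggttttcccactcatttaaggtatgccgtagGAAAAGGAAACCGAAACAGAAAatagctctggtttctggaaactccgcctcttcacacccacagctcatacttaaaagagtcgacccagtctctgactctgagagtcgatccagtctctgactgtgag
Rsad2: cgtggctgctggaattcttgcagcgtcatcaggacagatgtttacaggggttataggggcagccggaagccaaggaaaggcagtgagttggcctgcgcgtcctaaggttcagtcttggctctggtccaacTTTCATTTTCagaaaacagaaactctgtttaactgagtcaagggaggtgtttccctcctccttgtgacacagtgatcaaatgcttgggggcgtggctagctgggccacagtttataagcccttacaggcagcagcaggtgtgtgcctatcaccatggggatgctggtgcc

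Of the chemokine list, 5 of 10 tested genes were higher in MHC-high members of library 1 (Ccl3, Ccl4, Ccl5, Cxcl9 and Cxcl10) and 0 were lower. Of all genes tested in these members, 7% were higher and 3.36% lower. Ccl5, a chemokine for T cells and monocytes, stood at 2057 (1920.3 to 2201) CPM in MHC-high members of library 1 and at 73.5 (50.3 to 104) in those of library 2. Cxcl10, which is induced by interferon, stood at 2299 and 264. Of the mature dendritic list, 7 of 12 tested genes were higher in library 1 in MHC-high members, against 3 of 16 among the other barcodes, and in Ccr7-positive members alone it was again 7 of 12, where 8.53% of all tested genes were. Ccr7 itself, a gene of the rule whose level describes the choice, stood at 1979 and 712. Socs2, a feedback inhibitor of cytokine signals, stood at 198 and 18.4.

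Other genes of the MHC-high members were higher in library 2. Cd209a, a gene of the rule whose level describes the choice, stood at 595 (525 to 672) CPM in library 2 and at 203 (162 to 252) in library 1. Mgl2, which the rule did not use, stood at 229.7 in library 2 and at 44.0 in library 1. Il10, a cytokine that restrains inflammation, stood at 140.1 (107 to 180.0) in library 2, on 61 UMIs of 6 barcodes, and at 7.34 (1.51 to 21.4) in library 1, on 3. Itgax stood at 115 in library 2 and at 34.2 in library 1. The proliferation gene Mki67 did not meet the limit between the libraries. It stood at 142 (108 to 183) in MHC-high members of library 1 and 220.5 (179 to 269) in those of library 2, against 391 and 394 in the monocyte gate.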

How the data were processed

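Per the labels' protocols, each library was made from bone of 6 mice pooled per group, and the submitters' processing notes name FastQC 0.11.9, mm10 and GRCh38. The sources used here give no aligner. The deposited values are counts of UMIs per gene and barcode, made by the authors. Only mouse genes named in the matrix were used, and features without a gene name took 0.602% and 0.431% of UMIs. Summed UMIs were scaled to CPM, with Poisson and Clopper-Pearson intervals at 95% for counting error, a limit of 3 UMIs for a level of 0 and 0.5 UMI as the lowest count in a ratio. Members, lists and comparisons were chosen with earlier results of these data known. Named were the genes of 33 lists (380 of 386 symbols found) and those with the largest ratios in both libraries, and the sorting by 20 MHC class II UMIs per 10000 was added after the values were seen. For detection shares each barcode was thinned once to 1000 UMIs. Possible doublets were kept, and the 5% of barcodes with the highest Scrublet scores were left out as an alternative. Python 3.11.15, numpy 2.4.6, scipy 1.17.1, pandas 2.3.3, scanpy 1.11.5 and matplotlib 3.10.9 were used. Promoter sequences are those of RefSeq, GRCm38.p6.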

Additional observations from a re-analysis of the deposited data

How the results depend on the processing

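The members' share of barcodes was 0.933% in library 2 with a minimum of 500 UMIs, and 1.31% and 1.37% with 2000. An MHC class II sum of at least 10 UMIs gave 0.683% and 0.675%, with 73.4% and 39.3% of members Ccr7-positive, 32.1% Cd209a-type in library 2, 7.81% and 21.4% in the remainder and 46 genes called over the comparison classes, against 291 for all members. A dendritic gene sum of at least 3 gave 0.865% and 0.836%, with 36.5% in the remainder in library 2. Leaving Fscn1 out of the dendritic sum, a choice made after seeing the data, gave 0.833% and 0.747%, with 71.8% and 43.0% Ccr7-positive, 33.3% Cd209a-type in library 2, 11.5% and 17.2% in the remainder and 39 genes. The MHC-high limit, also chosen after seeing the data, gave 0.715% and 0.554%, with 73.1% and 47.8% Ccr7-positive, 37.7% Cd209a-type in library 2, 8.96% and 5.80% in the remainder and 43 genes.

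Leaving out every barcode with 3 UMIs of the stromal, erythroid, megakaryocyte or endothelial lists left 1 member in each library (member share of barcodes, library 1, 0.0107% and member share of barcodes, library 2, 0.00804%), of which 100% was Ccr7-positive in library 1 and 100% Cd209a-type in library 2, with 0% in the other kinds and 5960 genes called on 1 barcode each. With a floor of 50 UMIs 162 genes were called in all members, with a 3-fold limit 171 and in library 2 alone 474. In MHC-high members, 113 genes were lower in library 1 with a floor of 50 UMIs, and 244 were higher and 88 lower with a 3-fold limit, against 377 higher and 181 lower. As a mean over cells, 537 of 900 gene levels of all members moved beyond their counting interval, so levels of a group can rest on its deepest barcodes. Leaving out the 5% of barcodes with the highest Scrublet scores or the shared barcode sequences, a mitochondrial limit of 10% and a C1q limit of 0 each left the shares within their intervals and the counts within 1.5 times. No paired analysis was possible because each library is a single pool with no group in the labels. With 1 library of each pool, no value has a replicate error.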
